A study of Anas platyrhynchos x Cairina moschata with 205 samples.

Results

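HSPA2 and HSPA5, the pair of HSP70 chaperones on the panel, were followed in the liver of mule ducks whose eggs had been warmed during incubation. The members were the rows carrying these symbols, 2 of the 86 target genes and of the 92 assays measured by high-throughput quantitative PCR. The mule duck is the hybrid of the common duck and the Muscovy duck (Anas platyrhynchos x Cairina moschata). In the TM (thermal manipulated) group the incubation temperature was raised by 1 °C for part of each day in the later part of development, and in the control group it was kept constant. The first trial covered embryonic day 13 (E13), the first day of the increase, with 8 TM and 8 control livers at each of 7 times between 30 min and 7 h. The second trial covered E12, E16, E20, E24, E28 and E30 (hatching), with 8 livers per group at each age, apart from 5 control livers at E16. By the study's timeline E12 came before the increase, although its label gives a time after it, and E28 and E30 came after its end. At a given point of incubation all TM livers came from 1 incubator and all control livers from another, so that TM and incubator cannot be told apart and p-values cover only how livers of 1 incubator varied. In the first trial 1 pair of incubators gave the livers of 1 h, 3 h and 5 h, and another pair gave those of the other times. In the second trial the viable eggs of both groups were moved to a shared hatchery at E28. The E30 livers thus came from a shared machine, after incubation in separate ones.

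HSP70 proteins bind exposed hydrophobic stretches of unfolded proteins and release them in a cycle driven by ATP. Co-chaperones of the HSP40 family bring the client and start the ATP hydrolysis, and HSP90 takes over many clients afterwards. HSPA5, also called BiP or GRP78, is the HSP70 of the endoplasmic reticulum, where it folds secreted proteins such as those the liver makes and, in mammals, holds the sensors of the unfolded protein response inactive. HSPA2 is a cytosolic and nuclear member, best known in mammals for its role in male germ cells.

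Expression was given as the log2 of the deposited ratio, on which 0 lies at the gene's average over all Ct of a trial and 1 unit is 1 PCR cycle. The trials were normalized apart and were not compared. Each gene had a ratio in 193 of the 205 livers. The Ct (the PCR cycle in which the signal became detectable, lower where there is more template) was available for 204 livers, and the median Ct of the target genes per liver lay between 17.1 and 23.6. ALB, the gene of serum albumin that marks hepatocytes, had the lowest median Ct of all target genes, with 6.09 to 11.8 cycles in the livers other than 2. Those 2, TM replicate 1 at E20 and control replicate 7 at E16, had an ALB Ct of 22.5 and 23.7 cycles, and luciferase, an exogenous RNA, was their only reference gene with a Ct. HSPA2 had a ratio in both of them and HSPA5 in neither. Liver tissue was measured in bulk, so fewer cells of a type and less RNA per cell cannot be told apart.

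HSPA2 was lower in TM than in control livers at 1 h and at hatching, and HSPA5 was higher in 2 ages of the second trial, E20 and E24. These were the 4 of 26 comparisons, 13 per gene, in which the difference between TM and control livers passed an exact two-sided permutation test at an unadjusted p under 0.05. Over all target genes and points the same test was passed by 107 of 1020 comparisons (10.5%). After the Benjamini-Hochberg correction of limma over the target genes of a point, HSPA2 and HSPA5 passed at no point, and 0.098% of all comparisons passed. By limma's unadjusted p, 3 points passed for HSPA2 and 1 for HSPA5, against 10.4% of all comparisons. The TM and control values of both genes overlapped at every point. Groups without overlap made up 0.196% of all comparisons.

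**Figure D1:**
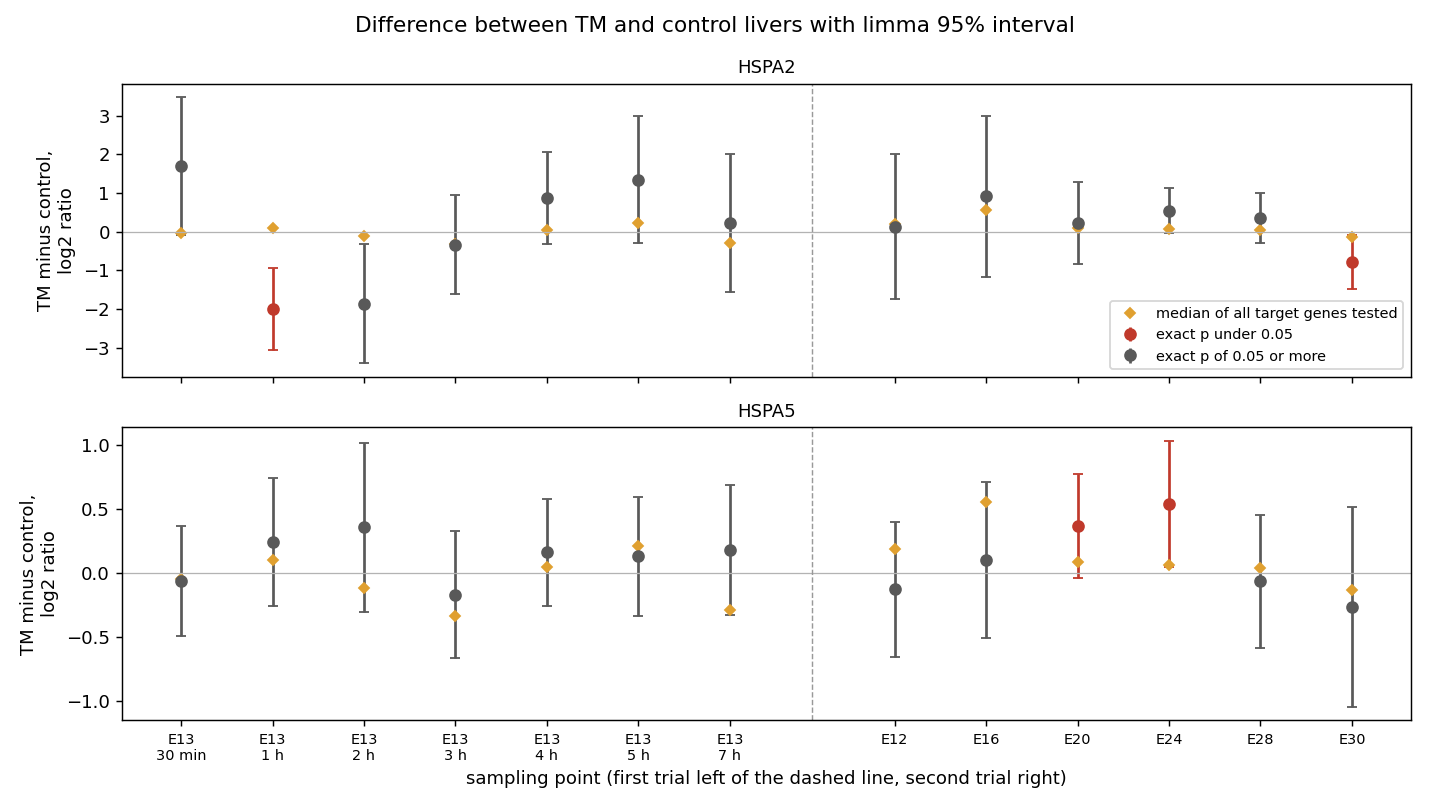
TM minus control difference of the log2 ratio for HSPA2 (top) and HSPA5 (bottom) at each sampling point, with the 95% interval of limma, coloured red where the exact p was under 0.05, and the median difference of all target genes tested at the point as diamonds. HSPA2 was at −2.0 at 1 h and −0.78 at E30, and HSPA5 at 0.37 at E20 and 0.54 at E24. The interval of HSPA5 at E20 reached just below 0.

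At 1 h the HSPA2 ratio lay below the average of the trial in all TM livers and above it in most control livers. The 8 TM livers had log2 ratios of −2.18 to −0.60 (median −1.05), against −1.96 to 2.47 (median 1.13) in the 8 control livers. All 8 TM livers were below the control mean, and 7 of the 8 control livers were above every TM liver. The eighth, control replicate 4, had −1.96 and lay within the TM range. The mean was −1.21 ± 0.56 (SD, n = 8) in TM livers and 0.79 ± 1.40 (n = 8) in control livers, a difference of −2.0, or 3.99-fold lower (exact permutation p = 0.00342, limma 95% interval −3.05 to −0.95, adjusted p = 0.0656). It was the smallest exact p of the 76 target genes tested at this point, of which 10.5% passed and 6.58% were lower in TM livers.

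The difference at 1 h was present in the raw cycles as well. HSPA2 had a Ct of 20.0 cycles in TM livers and 17.8 cycles in control livers (exact permutation p = 0.00342), while the 4 reference genes averaged 18.3 cycles in TM and 18.1 in control livers (p = 0.476). The difference of the ratios stayed between −2.39 and −1.76 when each of the 16 livers was left out in turn, with an exact permutation p of at most 0.00699. Over the 9 other settings tried, p ranged from 0.000863 to 0.00811. Of these, at least 3 livers per group and all deposited Ct left the values of 1 h unchanged. The markers of liver cells did not pass the test at this point. ALB differed by 0.41 (p = 0.312), the hepatocyte factor HNF4 by 0.75 (p = 0.0718), CYP2C, a cytochrome of hepatocytes, by 0.53 (p = 0.221), TGFB1 by 1.23 (p = 0.488) and HGF, the growth factor of hepatocytes, by 0.71 (p = 0.101, exact permutation tests). STAB1, a receptor of the sinusoidal endothelium, differed by −0.54 cycles (exact p = 0.555).

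After 30 min of the increase the order of the groups was the opposite, with a difference that did not pass. TM livers had −1.12 to 2.69 (median 0.85, n = 8) and control livers −5.21 to 1.37 (median −0.77, n = 7). The means were 0.82 ± 1.37 in TM livers and −0.88 ± 2.17 in control livers, a difference of 1.70 (exact permutation p = 0.0769). The value of −5.21 came from control replicate 1, the liver whose Ct was not used here. Without it the difference was 0.98 (exact p = 0.177), and 7.69% of the 78 target genes passed at this point. With each of the 15 livers left out in turn, exact p ran from 0.0346 to 0.177, and 11 omissions still did not pass. Control replicate 3 had no ratio, and its Ct corresponds to 2.55, above every other control liver. In cycles, with replicate 3 and without replicate 1 of the controls, HSPA2 had 17.8 in 8 TM and 19.0 in 7 control livers (exact p = 0.155). STAB1, which was also a reference gene, had a Ct of 19.4 in TM and 20.6 in control livers at 30 min (exact p = 0.00202), and ALB differed by −0.68 (p = 0.0270). Their part in the HSPA2 value was not tested.

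In the deposited ratios the TM effect on HSPA2 thus changed between 30 min and 1 h by −3.70 on the log2 scale (95% interval −5.81 to −1.59). This interaction in the limma fit of the trial had an unadjusted p of 0.000766 and an adjusted p of 0.0575 over the 75 genes tested, of which 12% passed unadjusted. Control replicate 3 of 30 min, which had no ratio, was not in this fit. The livers of the 2 points came from different pairs of incubators, so time and incubator pair cannot be told apart. Of the 22 changes between neighbouring points tested in the pair of genes, no other had an unadjusted p under 0.05, against 8.6% of such changes over all target genes.

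At 2 h, in livers from the same incubators as at 30 min, the HSPA2 mean was lower in TM than in control livers, but the test was missed. TM livers had −3.19 to −0.84 (median −1.36, n = 7) and control livers −1.74 to 3.38 (median −0.78, n = 8). All 7 TM livers were below the control median, but the control group itself was split, with 3 livers between 1.90 and 3.38 and the other 5 between −1.74 and −0.56. The difference of −1.86 missed the threshold (exact permutation p = 0.0505, limma unadjusted p = 0.0206, adjusted p = 0.395), and 6.49% of the genes passed. With each of the 15 livers left out in turn, exact p ran from 0.0134 to 0.0942, and 11 omissions still missed it. A TM liver without a ratio, replicate 4, had a Ct that corresponds to 4.08. With all deposited Ct the difference was −1.16 (exact p = 0.298).

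From 3 h on, the HSPA2 difference did not pass, and its sign turned. It was −0.33 at 3 h (exact permutation p = 0.633, 95% interval −1.61 to 0.94), 0.86 at 4 h (p = 0.167), 1.34 at 5 h (p = 0.133) and 0.22 at 7 h (p = 0.788). At these points 13.3%, 5.33%, 14.3% and 14.7% of the target genes passed. At 7 h the widest gap between neighbouring values lay in the middle of both groups, and a division into sets was not tested. In TM livers 4 had 2.22 to 3.26 and 4 had −1.61 to 0.49, and in control livers 4 had 2.07 to 2.88 and 4 had −1.38 to −0.14.

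**Figure D2:**
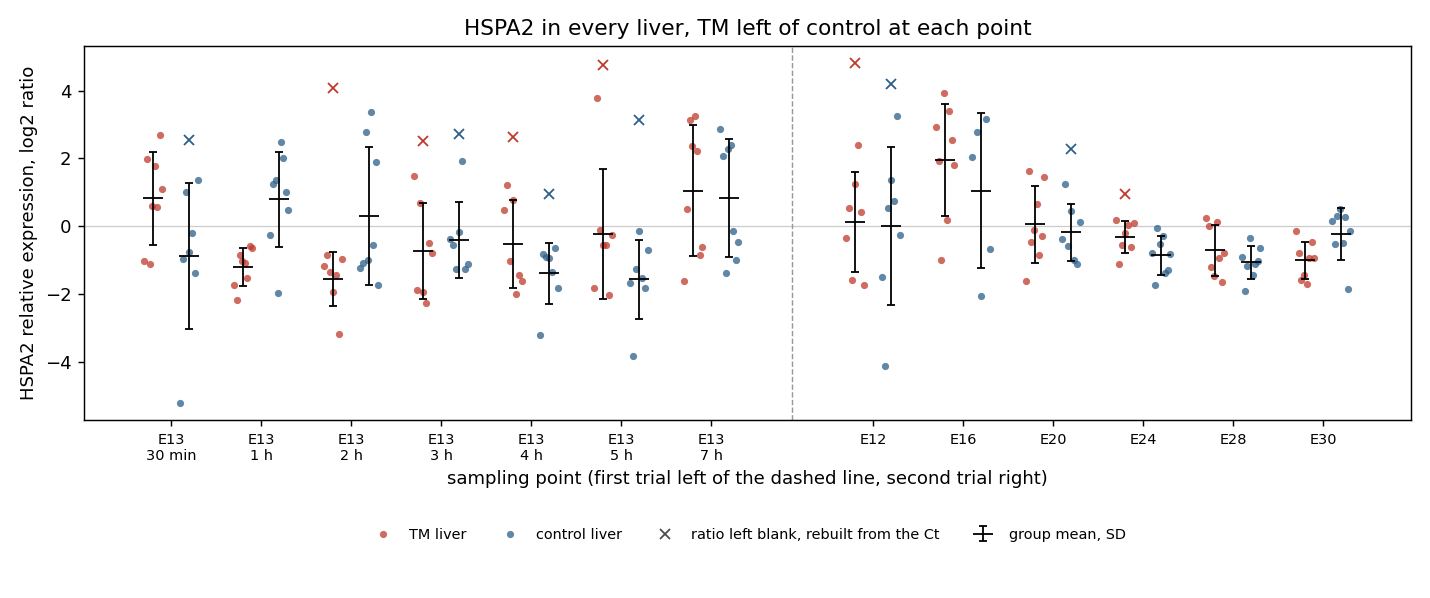
Log2 ratio of HSPA2 in each liver (points) with the group mean and SD (bars), TM left of control at each sampling point; crosses mark livers whose ratio was left blank, rebuilt from their Ct. The 8 TM livers of 1 h lie between −2.18 and −0.60, below 7 of the 8 control livers. Every cross lies above the other livers of its group.

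In the second trial HSPA2 did not pass between E12 and E28. The difference was 0.13 at E12 (exact permutation p = 0.911, 7.41% of target genes passed), 0.91 at E16 (p = 0.406, 17.5%), 0.23 at E20 (p = 0.664, 10%) and 0.35 at E28 (p = 0.276, 9.76%). The intervals were wide at the early ages, from −1.75 to 2.0 at E12 and from −1.17 to 2.99 at E16. Without the 2 livers low in ALB the difference was 0.48 at E16 (exact p = 0.673) and 0.47 at E20 (p = 0.349). At E24 TM livers had −1.10 to 0.17 (median −0.20, n = 7) and control livers −1.72 to −0.05 (median −0.79, n = 8). The difference of 0.54 missed the threshold (exact p = 0.0699, with 10% of genes passing), and was 0.70 (p = 0.0345) with all deposited Ct, which add TM replicate 2.

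At hatching, HSPA2 was lower in the TM group. TM livers had −1.72 to −0.16 (median −0.94, n = 8) and control livers −1.86 to 0.51 (median 0.01, n = 8). No TM liver reached the control median, 5 control livers were above every TM liver, and control replicate 7, at −1.86, was below all of them. The mean was −1.01 ± 0.55 in TM livers and −0.22 ± 0.76 in control livers, a difference of −0.78, or 1.72-fold lower (exact permutation p = 0.0356, 95% interval −1.48 to −0.09, limma adjusted p = 0.583), where 9.52% of 84 genes passed and 2.38% were lower in TM livers. The Ct was 19.1 in TM livers and 18.0 in control livers (exact p = 0.0399). The call was lost in 2 of 9 other settings. These were limma over the whole trial (unadjusted p = 0.194) and limma with the replicate number as a block (unadjusted p = 0.0538), against the exact test's 0.0356. The fit over the trial pools the HSPA2 spread of all ages, with an SD of 1.95 at E12 and 0.66 at E30. At least 3 livers per group and all deposited Ct, also among the 9, left the values unchanged. Without TM replicate 3, 4 or 5 or control replicate 1, 3, 4, 6 or 8 the difference no longer passed, with exact p between 0.0524 and 0.0676, and without control replicate 7 it was −1.02 (p = 0.00264). ALB, HNF4, CYP2C, TGFB1 and HGF did not pass at E30, with exact p of at least 0.317.

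HSPA5 moved within a narrow band during the first day of the increase, and TM and control livers did not differ by the test at any hourly point. Group means lay between −0.34 (4 h) and 0.39 (1 h) in TM livers, and between −0.50 (4 h) and 0.16 (3 h) in control livers. At 1 h TM livers had −0.37 to 0.79 (median 0.45, n = 8) and control livers −0.29 to 1.24 (median 0.06, n = 8). In 7 of the 8 TM livers HSPA5 was above the control mean, but control replicate 8 was the highest liver of all. The other 7 control livers had −0.29 to 0.18, and 7 TM livers had 0.19 to 0.79. Over all livers the difference was 0.24 (exact permutation p = 0.266), and the interval from −0.26 to 0.74 does not include the size of the HSPA2 difference at the same point. The test was not repeated without control replicate 8.

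The other hourly differences of HSPA5 ran from −0.17 at 3 h (exact permutation p = 0.378) to 0.36 at 2 h (p = 0.261). At 2 h 5 of the 8 TM livers were above all 7 control livers, which had a narrow range of −0.33 to 0.33, while TM replicate 3 had −1.17. Relative to the mean of the panel in each liver, the difference became 0.51 at 2 h (exact p = 0.0113) and 0.45 at 7 h (p = 0.0199). At 7 h the deposited ratios differed by 0.18 (exact p = 0.443) and the median over all target genes was −0.29. There the reference genes had a mean Ct of 17.9 in TM and 19.1 in control livers (exact p = 0.00544), and luciferase alone had 21.3 in TM and 24.0 in control livers (p = 0.0247). HSPA5 itself had a Ct of 16.6 in TM and 17.6 in control livers (n = 8 each, exact p = 0.0107), with control replicate 6, which had no ratio, among them. ALB differed by −0.66 at this point (exact p = 0.0190). The part of the reference genes and of ALB in these values was not tested.

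HSPA5 was higher in TM than in control livers at 2 ages of the second trial. At E20 the 7 TM livers had −0.99 to −0.23 (median −0.68) and the 7 control livers −1.53 to −0.73 (median −0.97). All TM livers were above the control mean and 4 were above every control liver. The mean was −0.64 ± 0.29 in TM livers and −1.01 ± 0.28 in control livers, a difference of 0.37, or 1.29-fold (exact permutation p = 0.0303, 95% interval −0.03 to 0.77, adjusted p = 0.561), and 10% of the target genes passed, 8.75% with a higher value in TM livers. This call was lost in 7 of 10 other settings, which gave 0.0077 to 0.39. Of the 10, at least 3 livers per group and the omission of the 2 livers low in ALB could not change the call. HSPA5 had no ratio in those 2 livers. It was also lost without TM replicate 4, 5 or 8 or control replicate 6, 7 or 8, with differences of 0.28 to 0.36 and exact p between 0.0524 and 0.0629. In cycles HSPA5 was level over 7 TM and 8 control livers, with 17.4 in TM and 17.4 in control livers (exact p = 0.987). These take in control replicate 4, which had no ratio and whose Ct of 16.7 lay above the other control livers in log2 ratio (−0.03). The reference genes had 20.2 in TM and 19.9 in control livers (n = 8 each, exact p = 0.288), TM replicate 1 with luciferase alone among them. HGF was 0.96 higher in TM livers at this age (exact p = 0.0109), and its part in the result was not tested. ALB (−1.39), HNF4 (−0.36), CYP2C (−0.04) and TGFB1 (−1.69) did not pass, with exact p of at least 0.239. TM replicate 1, the liver low in ALB, was among the ALB values.

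At E24 all 8 TM livers were above the control mean. TM livers had −1.18 to −0.02 (median −0.72) and control livers −2.11 to −0.65 (median −1.06, n = 8 each). In 3 TM livers HSPA5 was above every control liver, and in 3 control livers it was below every TM liver. The mean was −0.65 ± 0.38 in TM livers and −1.19 ± 0.49 in control livers, a difference of 0.54, or 1.45-fold (exact permutation p = 0.0250, 95% interval 0.05 to 1.03, adjusted p = 0.442), with 10% of genes passing and 8.75% higher in TM livers. The call was lost without TM replicate 1 (0.45, exact p = 0.0533), without control replicate 5 (0.41, p = 0.0508) and without a reference gene (0.18, p = 0.630). ALB, HNF4, CYP2C and TGFB1 did not pass at E24, with exact p of at least 0.274.

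At the other ages HSPA5 did not pass. The difference was −0.13 at E12 (exact permutation p = 0.524), 0.10 at E16 (p = 0.648, with 7 TM and 4 control livers), −0.06 at E28 (p = 0.783) and −0.26 at E30 (p = 0.497). At E30 the values were widely spread, from −0.89 to 1.45 in 7 TM livers and from −0.28 to 1.58 in 8 control livers.

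**Figure D3:**
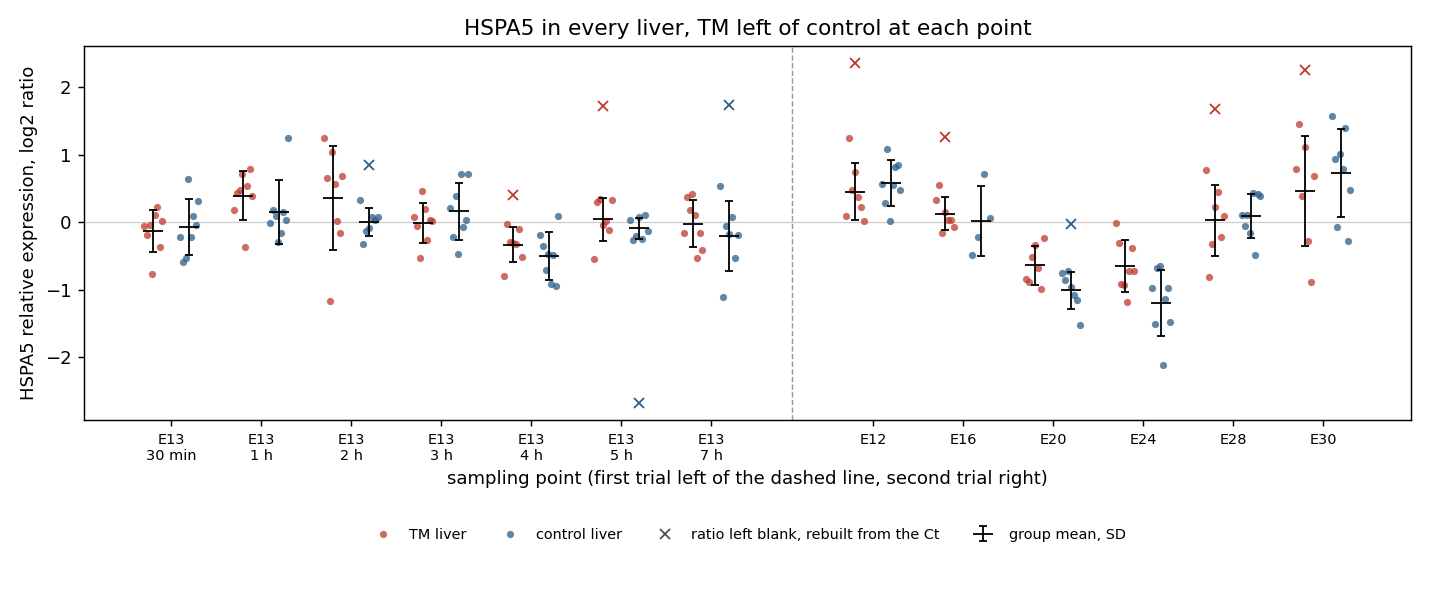
Log2 ratio of HSPA5 in each liver (points) with the group mean and SD (bars), TM left of control at each sampling point; crosses mark livers whose ratio was left blank, rebuilt from their Ct. At E20 and E24 the TM means (−0.64 and −0.65) lie above the control means (−1.01 and −1.19), and both groups are lower there than at E12 and E30.

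Over the second trial both groups had their lowest HSPA5 means at E20 and E24. In TM livers its mean was 0.45 at E12, 0.12 at E16, −0.64 at E20, −0.65 at E24, 0.03 at E28 and 0.46 at E30. In control livers it was 0.58 at E12, 0.02 at E16, −1.01 at E20, −1.19 at E24, 0.09 at E28 and 0.73 at E30. By 1 limma fit over the trial, HSPA5 fell between E16 and E20 by 0.76 in TM livers (adjusted p = 0.0443, 10.1% of genes passed) and by 1.03 in control livers (adjusted p = 0.0197, 7.41%).

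HSPA5 then rose between E24 and E28 by 1.28 in control livers (limma adjusted p = 3.59e-05, 15.9% of genes passed), a change that held whichever of the 16 livers was left out. In TM livers it differed by 0.68 (limma adjusted p = 0.0576, 12.3%). The drop in the TM effect between these ages, −0.60, did not pass (limma unadjusted p = 0.0841). Between E28 and E30 HSPA5 rose by 0.64 in control livers (adjusted p = 0.0352, 27.4%), which was lost without each of 7 of the 16 livers (adjusted p up to 0.103), and differed by 0.43 in TM livers (adjusted p = 0.199, 33.7%). The control call was also lost when livers were centred on the panel (0.37, limma adjusted p = 0.174), with endogenous reference genes alone (0.66, adjusted p = 0.0597) and with all deposited Ct (0.64, adjusted p = 0.110). The falls between E16 and E20 were lost in TM livers without each of 10 of 14 livers (−0.83 to −0.69, adjusted p up to 0.0943), and in control livers without replicate 3 of E16 or replicate 8 of E20 (adjusted p up to 0.0869). The TM call was also lost when livers were centred on the panel (−0.53, limma adjusted p = 0.142) and with endogenous reference genes alone (−0.76, adjusted p = 0.129), and the control call with endogenous reference genes alone (−0.83, adjusted p = 0.0963) and with all deposited Ct (−0.90, adjusted p = 0.129).

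HSPA2 was highest at E16 in both groups. Its mean in TM livers was 0.13 at E12, 1.96 at E16, 0.05 at E20, −0.32 at E24, −0.71 at E28 and −1.01 at E30. In control livers it was 0.001 at E12, 1.05 at E16, −0.18 at E20, −0.86 at E24, −1.07 at E28 and −0.22 at E30. Between E16 and E20 HSPA2 fell by 1.91 in TM livers (limma adjusted p = 0.0372), which was lost without each of 10 of the 16 livers, TM replicate 1 at E20 (the liver low in ALB) among them (−1.67, adjusted p = 0.0661). Over the 16 livers it ranged from −2.33 to −1.63. It was also lost when livers were centred on the panel (−1.30, limma adjusted p = 0.144) and with endogenous reference genes alone (−1.52, adjusted p = 0.209). In control livers the difference was −1.23 (limma adjusted p = 0.244). These limma p-values rest on an HSPA2 spread pooled over all ages of the trial. The difference between E12 and E16 in TM livers, 1.83, did not pass (limma adjusted p = 0.162, 1.23% of genes passed).

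Sampling points were also ranked by level and neighbours compared. The order came from the same means and set close ones side by side, which favours a low count of pairs that pass. The share over all target genes was not counted. Of 44 neighbouring pairs in the order of the means, 4 had an unadjusted exact permutation p under 0.05. For HSPA2 this was E16 over E12 in TM livers (exact p = 0.0463), a change that did not pass by limma (adjusted p = 0.162). For HSPA5 it was E28 over E20 in TM livers (exact p = 0.0122), and E12 over E28 (p = 0.0109) and E16 over E20 (p = 0.00303) in control livers. Between the highest and the lowest point of a trial the distance was 2.61 (7 h over 2 h) in TM and 2.39 (7 h over 5 h) in control livers for HSPA2 in the first trial, and 0.73 (1 h over 4 h) in TM and 0.66 (3 h over 4 h) in control livers for HSPA5.

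The pair differed in how far livers of 1 group lay apart. Over the first trial the within-group SD was 1.5 for HSPA2, rank 12 of 86 genes from the most variable, and 0.40 for HSPA5, the second least variable. In the second trial it was 1.22 (rank 14 from the most variable) for HSPA2 and 0.46 (rank 12 from the least variable) for HSPA5. The spread of HSPA2 also narrowed with age, from 1.95 at E12 and 1.91 at E16 to 1.00 at E20, 0.53 at E24, 0.63 at E28 and 0.66 at E30. The median SD of the target genes stayed between 0.61 and 0.76 at these ages. At E12 the Ct of HSPA2 ranged over 8.57 cycles between 16 livers, and at E24 over 2.07 cycles. HSPA5 had its smallest SD at 5 h (0.25, the lowest of 83 genes) and its largest at E30 (0.73). Each SD covers only livers with a ratio. At 5 h TM replicate 6 and control replicate 3 had none for HSPA5, and their Ct corresponds to 1.71 and −2.67. With them, the Ct of HSPA5 at 5 h ranged over 5.19 cycles.

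**Figure D4:**
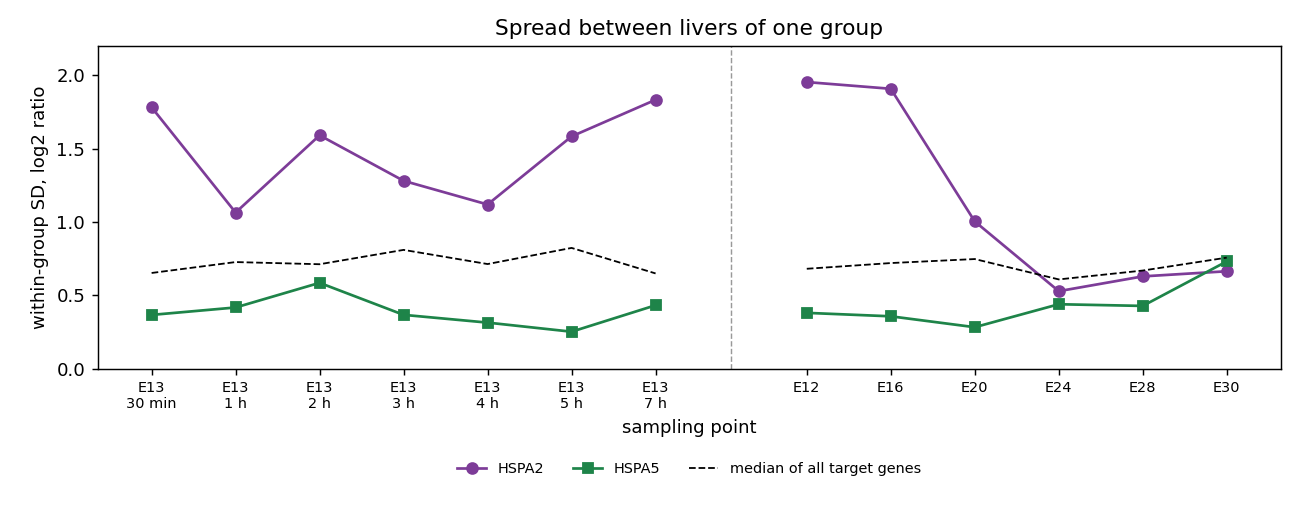
Pooled within-group SD of the log2 ratio of HSPA2 (circles), HSPA5 (squares) and the median over the target genes (dashed) at each sampling point, with the first trial left of the dashed vertical line. HSPA2 lies above the median gene at each point to E20 and just below it from E24, while HSPA5 lies below it at every point.

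Not every Ct had a ratio. A Ct without a ratio was found for HSPA2 in 12 livers, and in all 12 the value rebuilt from the Ct lay above every other liver of its group. For HSPA5 this held for 9 of 10 such livers, and the tenth, control replicate 3 at 5 h, lay below. The same was seen over the panel, where 89.8% of 605 such values were above and 9.75% below all others of their group. The highest rebuilt values of HSPA2 were 4.08 at 2 h, 4.76 at 5 h and 4.81 at E12 in TM livers, and 3.14 at 5 h and 4.18 at E12 in control livers.

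Within a group, the Pearson correlation r of HSPA2 and HSPA5 was low in the deposited ratios and did not pass in either trial. The deviations from the group mean had r = 0.134 (permutation p = 0.183) and rho = 0.149 (p = 0.141) over 100 livers of the first trial, and r = 0.158 (p = 0.149) and rho = 0.228 (p = 0.0374, or 0.0748 after Benjamini-Hochberg over the 2 trials) over 84 livers of the second. Without the 2 livers farthest from the median HSPA2 value r was 0.114 in the first trial and 0.218 in the second. With each liver centred on the panel, r was 0.356 in the first trial (permutation p = 0.000280) and 0.30 in the second (p = 0.00627). All genes of a liver share its reference genes and its RNA input.

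The genes whose deviations were most like those of HSPA2 were GLUT1, a glucose transporter (r = 0.418, 94 livers), HK1, a hexokinase (0.338, 81 livers) and FABP4, a fatty acid carrier (0.318, 65 livers) in the first trial, and FABP4 (0.359, 70 livers), HK1 (0.259, 83 livers) and HSP90AA1 (0.247, 83 livers) in the second. For HSPA5 they were the cytosolic chaperone HSP90AA1 (0.619, 105 livers), ENO1, an enzyme of glycolysis (0.577, 105 livers) and ACSL1, which activates fatty acids (0.537, 106 livers) in the first trial, and RBBP4, a histone-binding protein (0.529, 85 livers), DNAJA2 (0.518, 84 livers) and LIPC, hepatic lipase (0.492, 83 livers) in the second. The median r over the genes compared was −0.01 in both trials for HSPA2, and 0.279 in the first and 0.222 in the second for HSPA5. With each liver centred on the panel, HSP90AA1 came first for HSPA2 in both trials (0.506 and 0.517) and ALB came last in the first (−0.639).

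Of 13 other genes of the chaperone network, 1 or 2 passed at each of the points at which HSPA2 or HSPA5 did. At 1 h 1 was higher and 1 lower, against 10.5% of all target genes. HSF3, a heat shock factor, was 0.87 ± 0.79 (n = 8) in TM and −0.39 ± 1.10 (n = 7) in control livers (exact permutation p = 0.0165, adjusted p = 0.271). HSP60, the mitochondrial chaperonin, was 1.16 ± 1.17 in TM and 2.41 ± 0.72 in control livers (n = 7 each, exact p = 0.0175, adjusted p = 0.274). The HSP40 co-chaperones DNAJA2 and DNAJB12, the HSP70-interacting ST13, HSP90AA1 and ATF4, a transcription factor of the unfolded protein response, did not pass at 1 h.

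Of all target genes 10% passed at E20, 10% at E24 and 9.52% at E30. HSP90AA1 passed at E20 and E24, where HSPA5 did, and at E30, where HSPA2 did. It also passed at 30 min (0.34, exact permutation p = 0.0494, adjusted p = 0.566), where neither did and 7.69% of all target genes passed. At E20 it was −0.66 ± 0.18 (n = 6) in TM and −1.09 ± 0.28 (n = 7) in control livers (exact permutation p = 0.00699, adjusted p = 0.384), the only one of the 13. At E24 it was −0.55 ± 0.41 (n = 8) in TM and −0.99 ± 0.37 (n = 7) in control livers (exact p = 0.0468, adjusted p = 0.519), while DNAJB12 was lower by 1.14 (p = 0.0385, adjusted p = 0.442). At E30 it was 0.62 ± 0.32 in TM and 1.03 ± 0.44 in control livers (n = 8 each, exact p = 0.0490, adjusted p = 0.583) and again the only one. ATF4 was lower at 2 h (−0.72, exact p = 0.0168, adjusted p = 0.395), where 6.49% of all target genes passed. ATF4 was higher at E16 (0.76, exact p = 0.00808, adjusted p = 0.174). At that age 17.5% of all target genes passed, all of them higher, and the median over all target genes was 0.55. ALB differed by 4.15 at E16 (exact p = 0.0101), with the control liver low in ALB among its values, a liver that had no ATF4 ratio. At 3 h 4 of the 12 tested were lower and 0 higher (DNAJA2, HSBP1, HSP10 and ST13), while 13.3% of all target genes passed, all of them lower. The median was −0.39 over the list and −0.33 over all target genes. At 5 h 3 of 13 were higher (ATF4, the proteasome subunit PSMD12 and ST13) and 1 lower (HSP60), while 14.3% of all target genes passed, and the median was 0.25 over the list and 0.21 over all target genes. HSF2 was lower at 30 min (−0.61, exact p = 0.0483) and HSBP1 at 7 h (−1.07, p = 0.0409, 14.7% of all target genes passed). DNAJB12 (1.24, exact p = 0.0357) and HSP60 (0.92, p = 0.0449) were higher at E12 (7.41%). PSMD12 was higher at E28 (0.75, exact p = 0.0260, 9.76%). At 4 h no gene of the list passed (5.33%).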

How the data were processed

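Livers of 205 mule duck embryos and hatchlings had been measured by Fluidigm quantitative PCR. The authors deposited relative expression ratios (2 to the power of −∆∆Ct, R 3.6.2), set against 4 reference genes per trial (ActB, or HPRT1 in the second trial, with luciferase, STAB1 and USP9X) and against the gene's mean ∆Ct. Other deposited values are Ct on the scale of cycles. Rebuilding the ratios from the Ct with the geometric mean of the reference Ct gave the deposited log2 ratio up to a constant per gene and trial. All 4 reference Ct were present in 199 of 204 livers. One column of per-sample values was not used, and no reference sequence was used. No pair of livers held the same set of Ct.

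Ratios were taken to log2 without a pseudocount. The members and lists were chosen with earlier results of these data known. Genes named besides the members are the 3 most alike in each trial, members of a list of 13 chaperone network genes, and the cell markers ALB, HNF4, CYP2C, TGFB1, HGF and STAB1; ALB as the least alike gene was named after its value was seen. A gene was tested with at least 6 livers per group (4 where a group held 5). TM minus control means were put to exact two-sided permutation tests, threshold unadjusted p under 0.05 as in the study, and to limma with Benjamini-Hochberg correction over all target genes (Python 3.11.15, numpy 2.4.6, pandas 2.3.3, scipy 1.17.1, matplotlib 3.10.9, R 4.3.3, limma 3.58.1). Ages and interactions were fitted by limma over a trial, with the spread of a gene pooled over all its points. Limma was tested on simulated independent normal values with the groups of E16 and E20. They held no outliers and no shift shared by the genes of a liver. Livers sharing a replicate number had a mean correlation of −0.07 to 0.11, which cannot exclude pairing, and the main tests did not pair them. In the first trial control and TM eggs were dissected in turn. The labels do not say whether replicate numbers follow that order. Alternatives were all deposited Ct, endogenous reference genes, no reference gene, centring on the panel, the methods' Student or Wilcoxon test, limma per point and trial, a replicate block, 3 livers per group, and omitted livers.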

Additional observations from a re-analysis of the deposited data

Results flagged for a closer look

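A liver far from the others of its group was found in 5 of the 52 groups of HSPA2 and HSPA5. Chance alone gives about 1 in 20 complete groups. Here some groups had lost a value beyond all their others to a blank ratio, so the 2 rates cannot be compared. HSPA2 had a log2 ratio of 3.77 in TM replicate 2 at 5 h, where the other 6 TM livers had −2.03 to −0.13. In control livers HSPA2 was −5.21 in replicate 1 at 30 min, against −1.39 to 1.37 in the other 6. It was 1.93 in control replicate 6 at 3 h, against −1.28 to −0.16 in the other 6, and −1.86 in control replicate 7 at E30, against −0.54 to 0.51 in the other 7. HSPA5 was 1.24 in control replicate 8 at 1 h, where the other 7 control livers had −0.29 to 0.18.

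The TM effect on HSPA2 differed between 1 h and 30 min by −3.70 (limma interaction, unadjusted p = 0.000766, adjusted p = 0.0575), with TM livers lower than control livers at 1 h and higher at 30 min. Without control replicate 1 of 30 min it was −2.98 (unadjusted p = 0.00491). Control replicate 3 of 30 min had no HSPA2 ratio and was not in the fit, and its Ct corresponds to 2.55. The points of 1 h and 30 min came from different pairs of incubators, so time and incubator pair cannot be told apart.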

How the results depend on the processing

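The lower HSPA2 at 1 h kept its direction and its side of the threshold in all 9 alternatives. Of these, at least 3 livers per group and all deposited Ct left its values unchanged and could not alter the result. Over all results and alternatives, 522 values kept both, 65 lost their call, 29 gained one, 30 changed direction and 1 value without a test moved. The 522 include 26 values with at least 3 livers per group, which equal the main values by construction. Others among them are also fixed, such as HSPA5 at E16 and E20 without the 2 livers that had no HSPA5 ratio. Precision was limited by 4 to 8 livers per group and by values left blank. The alternatives that omit a liver, other than at E16, and all Ct for the correlation were chosen after seeing the data. Causes were not tested. Values are TM minus control unless stated, with p in brackets, exact unless limma is named.

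By limma over a trial, HSPA2 was 1.70 (0.0286) at 30 min, −1.86 (0.0168) at 2 h and −0.78 (0.194) at E30, and HSPA5 0.37 (0.153) at E20. That fit pools the spread of a gene over all points of the trial. By limma per point, HSPA2 was −1.86 (0.0206) at 2 h and HSPA5 0.37 (0.0701) at E20. Replicate numbers are shared between groups. Livers of the same number had a mean correlation of −0.07 to 0.11, which cannot exclude that they were paired. With the replicate number as a block in limma, HSPA2 was 1.98 (0.0115) at 30 min, −2.05 (0.0378) at 2 h and −0.78 (0.0538) at E30, HSPA5 was 0.39 (0.178) at E20, and the other calls were kept.

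Centred on the panel, HSPA2 was 0.063 at 3 h and HSPA5 0.013 at 30 min, 0.14 at 3 h and −0.30 at E16. HSPA5 was 0.51 (0.0113) at 2 h, 0.45 (0.0199) at 7 h and 0.081 (0.660) at E20. Its correlation with HSPA2 was 0.36 (0.000280) in the first and 0.30 (0.00627) in the second trial, and that with HSP90AA1 0.46. The change between E12 and E16 of the TM effect was −0.025 for HSPA2 and −0.069 for HSPA5, and that between E16 and E20 0.27 for HSPA2. In TM livers E20 minus E16 was −1.30 (limma adjusted p, as for ages below, 0.144) for HSPA2 and −0.53 (0.142) for HSPA5, and E24 minus E20 0.31 for HSPA5. In control livers E30 minus E28 was 0.37 (0.174) for HSPA5.

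With no reference gene, which takes in livers without a ratio, HSPA2 was 1.47 (0.0401) at 4 h, −0.43 at E20 and −0.029 at E28. HSPA5 was 0.51 at 30 min, 0.14 at 3 h, 0.76 (0.0289) at 4 h, 1.08 (0.0107) at 7 h, 0.55 (0.0160) at E12, −0.26 at E16, 0.0077 (0.987) at E20 and 0.18 (0.630) at E24. A lower Ct counts here as a higher value. The median target gene Ct differed too, by −0.52 cycles at 4 h (0.0272), −0.61 at 7 h (0.0347) and −0.71 at E12 (0.00497). The part of this shift in the values of HSPA2 and HSPA5 was not tested. With endogenous reference genes alone, HSPA2 was −0.12 at E12, and HSPA5 0.046 at 3 h, 0.27 (0.159) at E20 and 0.12 at E28. The HSPA5 TM effect then changed by 0.13 between 4 h and 5 h and by −0.16 between 5 h and 7 h. In TM livers HSPA2 E20 minus E16 was −1.52 (0.209), and HSPA5 E20 minus E16 −0.76 (0.129), E24 minus E20 0.13 and E28 minus E24 0.82 (0.0401). In control livers HSPA5 E20 minus E16 was −0.83 (0.0963) and E30 minus E28 0.66 (0.0597).

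With all deposited Ct, HSPA2 was −0.080 at E20 and 0.70 (0.0345) at E24. HSPA5 was −0.062 at 7 h, 0.11 at E12, 0.25 (0.225) at E20 and 0.14 at E28. Its TM effect changed by 0.41 between 4 h and 5 h, by −0.73 between 5 h and 7 h and by −0.0014 between E16 and E20. HSPA5 E28 minus E24 in TM livers was 0.88 (0.0493), and in control livers 7 h minus 30 min was 0.090, E20 minus E16 −0.90 (0.129) and E30 minus E28 0.64 (0.110). The correlation of the pair was 0.25 (0.00756) in the first and 0.26 (0.0124) in the second trial. On linear ratios, the methods' test gave −0.66 for HSPA2 at E12. By exact tests of ages, HSPA2 E16 minus E12 was 1.83 (0.0463) in TM and HSPA5 −0.56 (0.0465) in control livers, HSPA5 E28 minus E24 0.68 (0.0143) in TM livers and HSPA2 E30 minus E28 0.85 (0.0219) in control livers. Without the 2 livers whose only reference Ct was luciferase, HSPA2 E20 minus E16 in TM livers was −1.67 (0.0596). Accepting at least 3 livers per group could change no value, since both genes were already tested at every point.

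Omitting each liver in turn, HSPA2 ranged from 0.98 to 2.08 at 30 min, −2.39 to −1.76 at 1 h, −2.15 to −1.42 at 2 h, 0.13 to 1.44 at E16 and −1.02 to −0.68 at E30, and HSPA5 from −0.061 to 0.34 at E16, 0.28 to 0.43 at E20 and 0.41 to 0.62 at E24. The HSPA2 interaction ranged from −4.09 to −2.98 and kept its unadjusted call. HSPA2 E20 minus E16 in TM livers ranged from −2.33 to −1.63. HSPA5 E20 minus E16 ranged from −0.83 to −0.69 in TM and −1.19 to −0.80 in control livers, and in control livers E28 minus E24 from 1.15 to 1.36 and E30 minus E28 from 0.51 to 0.78.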
